A study of Mus musculus with 47 samples.

Results

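Krt7, Krt8, Krt18 and Krt19, the keratin genes of simple (single-layered) epithelia, were described across the ChIP-seq peak lists of a mouse mammary gland epithelial line, NMuMG. They are 4 of 21883 protein-coding genes in the RefSeq table used, whose assembly, GRCm38.p6, is that of mm10. A peak was counted at a gene when at least 1 base of it lay in the gene span or within 10 kb to either side, and windows of 50 kb gave a wider view. In mm10, with positions counted from 1, Krt7 spans 101412403 to 101427806, Krt8 101996711 to 102004342 and Krt18 102028216 to 102032026, all on chromosome 15. Krt19 spans 100140810 to 100145926 on chromosome 11.

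NMuMG cells pass from an epithelial to a mesenchymal state in response to the cytokine TGFβ1. Control cells and cells with Pbrm1 knocked out (KO) were left untreated (0 h) or received TGFβ1 at 5 ng/ml for 24 or 48 h. PBRM1 belongs to the PBAF type of SWI/SNF chromatin remodelling complex, and the library names begin with sgPbrm1 for KO and sgCt for control. Whether these are clones or pools of cells is not given in the sources used here. Control cells were profiled for PHF10, another PBAF subunit, at 0 h (2 libraries), 24 h (1) and 48 h (2), for BRG1, the SWI/SNF ATPase, at 0 h, for the bZIP factors ATF3 (0, 24 and 48 h), FOSL2 and FOSB (0 and 48 h), and for 5 histone marks at 0 and 48 h. KO cells were profiled for PHF10, FOSL2 and FOSB at 0 and 48 h and for ATF3 at 0, 24 and 48 h. Every group other than control PHF10 at 0 and 48 h had 1 library, so its differences have no replicate check.

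Keratins form the intermediate filaments of epithelial cells, and each filament pairs a type II with a type I keratin. Keratin 8 (type II) and keratin 18 (type I) are the usual pair of simple epithelia, keratin 7 is a further type II keratin of ducts and glands, and keratin 19 is the smallest type I keratin, with almost no tail domain. Their loss and the gain of vimentin are commonly used to follow an epithelial to mesenchymal transition. Krt8 and Krt18 are neighbours that are transcribed away from each other, and unlike the other type I keratin genes Krt18 lies in the type II cluster.

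The promoter sequences of 3 of the 4 genes are shown because the most often repeated peaks at these genes lay on or beside them. Each runs from 250 bases before the RefSeq start to 50 bases after it (RefSeq, GRCm38.p6). The positions are chr15:101412153-101412452 on the plus strand for Krt7, chr15:102004293-102004592 on the minus strand for Krt8 and chr15:102027966-102028265 on the plus strand for Krt18. Capitals mark CACCTG, the E-box core read by repressors of the SNAI and ZEB families.
Krt7: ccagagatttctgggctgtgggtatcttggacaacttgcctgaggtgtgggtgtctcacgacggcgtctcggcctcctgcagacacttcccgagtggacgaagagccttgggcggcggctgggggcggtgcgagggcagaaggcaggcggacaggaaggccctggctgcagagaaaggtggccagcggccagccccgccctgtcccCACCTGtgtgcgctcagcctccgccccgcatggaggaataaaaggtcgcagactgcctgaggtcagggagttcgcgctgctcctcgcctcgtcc
Krt8: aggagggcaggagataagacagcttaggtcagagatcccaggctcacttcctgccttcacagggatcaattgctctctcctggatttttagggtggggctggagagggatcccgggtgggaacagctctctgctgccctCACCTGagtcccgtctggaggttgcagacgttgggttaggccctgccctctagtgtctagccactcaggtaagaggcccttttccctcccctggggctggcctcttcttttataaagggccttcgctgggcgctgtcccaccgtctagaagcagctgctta
Krt18: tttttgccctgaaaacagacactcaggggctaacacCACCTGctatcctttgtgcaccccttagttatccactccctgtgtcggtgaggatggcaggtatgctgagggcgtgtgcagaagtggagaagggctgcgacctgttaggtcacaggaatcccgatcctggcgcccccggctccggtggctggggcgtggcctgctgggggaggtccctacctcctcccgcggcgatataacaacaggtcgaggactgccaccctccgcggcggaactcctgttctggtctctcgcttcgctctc

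Each of the 3 promoters held CACCTG once, counting both strands (its reverse complement is CAGGTG). It began 44 bases before the start in Krt7, 111 before it in Krt8 and 214 before it in Krt18. Of 32851 RefSeq promoters of the same length, 20.2% held it. None of the 3 held the AP-1 site TGACTCA (5.2% of promoters), the cyclic AMP response element TGACGTCA (1.79%) or the SMAD palindrome GTCTAGAC (0.213%), again on either strand. The GC box GGGCGG was found 4 times in Krt7 and in neither of the other promoters (35.7% of promoters), and the TATA box letters TATAAA gave 2 overlapping matches, 1 on each strand, at the start of Krt8 (13.6%). Krt7 was 66.3% G and C with 21 CpG dinucleotides, Krt18 61.3% with 17 and Krt8 58.0% with 6, against medians of 52.7% and 7 over all promoters. A match to letters is a description of the sequence and not a binding site.

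Peaks touched the 300 bases of the Krt7 promoter in 18 of 32 lists, those of Krt18 in 12 and those of Krt8 in 9. At Krt8 most start peaks lay just inside the gene. The H3K4me3 peak at 0 h began 39 bases downstream of the start and covered 11 of the 300 promoter bases.

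The 47 samples were 32 libraries with a peak list and 15 inputs without one. List length ran from 2 peaks (KO FOSB, 0 h) to 158815 (KO PHF10, 48 h), and the read depth of the lists is unknown. The labelled cell type was checked on 8 genes of epithelium and 8 of blood, endothelium, liver and muscle. H3K4me3 peaks lay at 8 of the 8 epithelial genes at both times and at 4 and then 3 of the 8 others. H3K27ac peaks lay at 8 and then 6 epithelial genes and at 2 and then 1 of the others. H3K4me1 lay at 8 and 3 at both times, and H3K14ac at 3 and 0 and then at 8 and 3. H3K18ac did not separate the 2 groups at 0 h, with 1 epithelial gene and 2 others, and had 5 and 3 at 48 h. Fold enrichment is the authors' value for ChIP against input. It is scaled within a list, so values from different lists are given side by side and not tested.

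**Figure D1:**
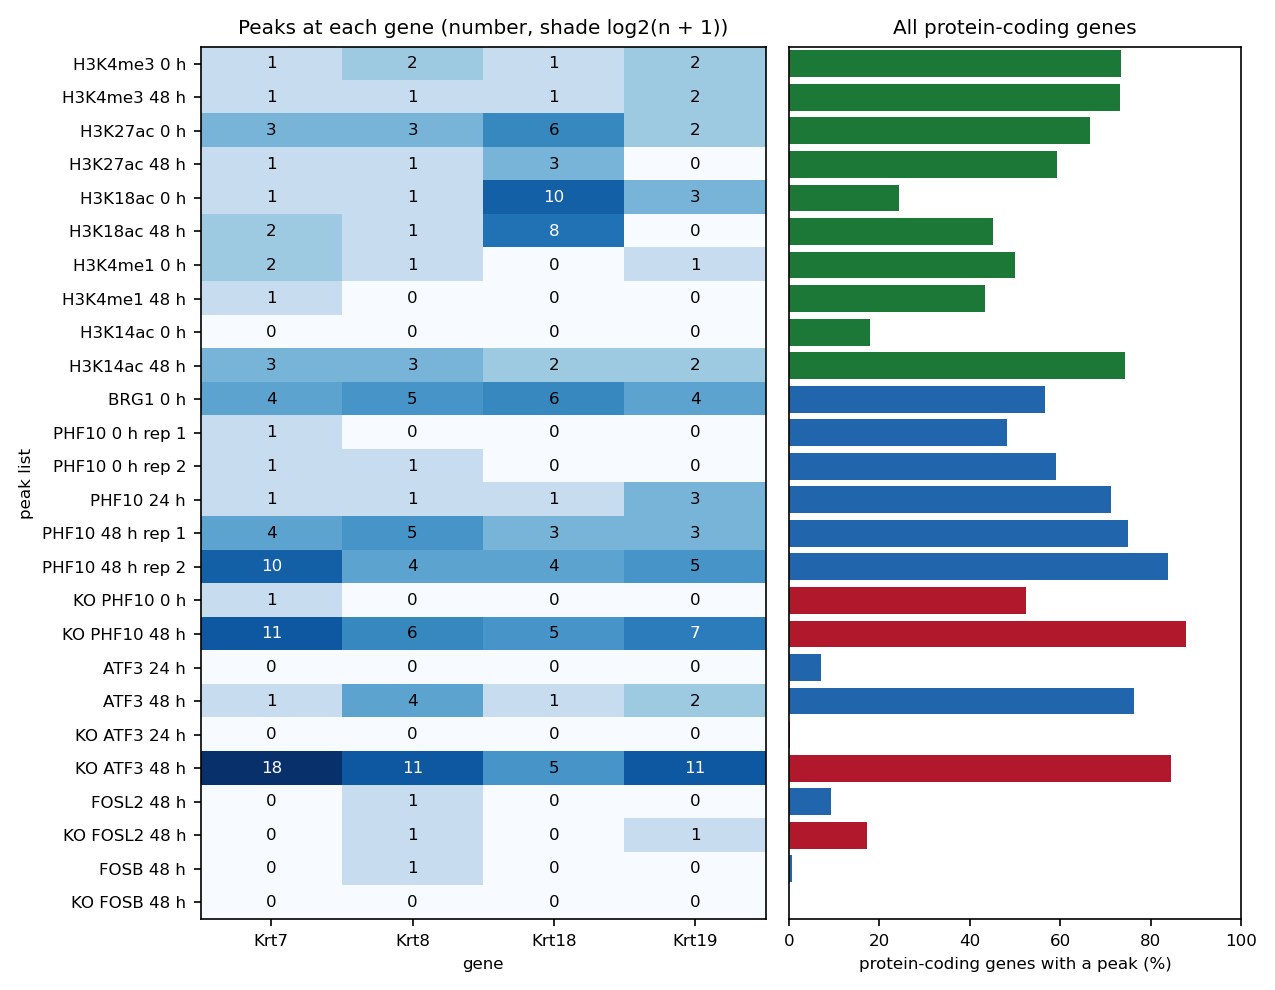
Number of peaks at each keratin gene (span and 10 kb to either side) in 26 peak lists, with the percentage of all protein-coding genes that had a peak in the same list (bars, right; green histone marks, blue factors in control, red factors in Pbrm1 KO). Lists of at most 25 peaks are not drawn. H3K4me3 is present at all 4 genes at both times, and the number of PHF10 and ATF3 peaks is highest in the 48 h lists.

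H3K4me3, a mark of active promoters, was present at the start of all 4 genes before and after TGFβ1. At 0 h, 73.5% of protein-coding genes had an H3K4me3 peak in the span or within 10 kb, and at 48 h 73.2% did. The share with a peak at the start was not counted. The strongest peak at Krt19 had a fold enrichment of 46.2 at 0 h and 18.4 at 48 h. Krt8 had 40.9 and 20.5, Krt18 28.5 and 20.7, and Krt7 27.6 and 19.0. No keratin gene of the 4 had the mark at 1 time only, a class that held 2.33% of all genes. Krt19 and Krt8 each had a second, weaker H3K4me3 peak far inside the gene. At Krt19 it lay 4633 to 4891 bp from the start at 0 h (3.47) and was also listed at 48 h (2.85), and at Krt8 it lay 6266 to 6499 bp from the start and was listed at 0 h only (4.27).

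H3K27ac, an acetylation of active promoters and enhancers, was listed at all 4 genes at 0 h and at 3 of them at 48 h. The background was 66.6% of genes at 0 h and 59.2% at 48 h. Krt8 had 3 peaks at 0 h, the strongest of 55.5-fold enrichment at 3 to 1467 bp inside the gene, and 1 peak of 13.6 at 48 h. That 48 h peak was 246 bp wide. Krt18 had 6 peaks at 0 h (50.0 at the start) and 3 at 48 h (12.8 at the start). Krt7 had 3 peaks and then 1, with 31.9 and 17.9 at the start. The medians over all peaks of the list were 10.6 at 0 h and 13.1 at 48 h. At 0 h the start values of Krt7, Krt8 and Krt18 were above this median. At 48 h those of Krt8 and Krt18 were near it. Ranked among the genes with an H3K27ac peak, the 4 stood above 35.9% (Krt7) to 49.0% (Krt8) at 0 h. At 48 h the 3 genes with a peak stood above 25.2% (Krt18) to 29.6% (Krt7). By this rank each was below the median gene at both times.

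Krt19 was the exception. At 0 h its start carried H3K27ac of 34.0-fold enrichment (100145053 to 100145946 on chromosome 11), and at 48 h no H3K27ac peak was listed within 10 kb or within 50 kb of it. Of all genes, 8.49% had H3K27ac at 0 h and none at 48 h. Among 44 other keratin genes whose windows share no ground with the 4, 6 had H3K27ac at 0 h only, 1 at 48 h only, 5 at both times and 32 at neither.

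H3K18ac, an acetylation laid down by the same enzymes (CBP and p300) as H3K27ac, was listed at all 4 genes at 0 h, when 24.3% of all genes had a peak. At 48 h Krt7, Krt8 and Krt18 had it and Krt19 did not, with 45.1% of all genes. Krt18 had the most peaks, 10 at 0 h and 8 at 48 h, spread from 9742 bp upstream of the start to 13045 bp downstream at 0 h. The strongest lay 6779 to 7143 bp from the start, beyond the end of the gene (9.98 at 0 h and 7.22 at 48 h). Krt8 had 1 broad peak upstream of its start at each time, from 2777 to 221 bp before the start at 0 h (4.85) and from 2393 to 392 bp before it at 48 h (3.44). Krt7 had a peak 1960 to 1516 bp upstream at 0 h (8.14), and at 48 h a weaker one there (2.98) and another over the start (2.81).

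Krt19 had 3 H3K18ac peaks at 0 h, all upstream of the gene (7.41, 6.81 and 5.21), and none within 50 kb at 48 h. H3K18ac at 0 h and not at 48 h was found at 3.88% of all genes, while 24.6% had the reverse.

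H3K4me1, found at enhancers and promoter flanks, was listed at Krt7, Krt8 and Krt19 at 0 h and at Krt7 alone at 48 h. The background was 50.0% and 43.3% of genes. At Krt8 the 0 h peak lay 6262 to 6595 bp inside the gene (3.46), on the place of the weaker H3K4me3 peak, and at Krt19 it lay 4662 to 4977 bp inside (2.82), again on the place of the weaker H3K4me3 peak. Both were listed at 0 h only, as was H3K4me1 at 12.1% of all genes. Krt7 had a start peak at both times (2.98 at 0 h and 11.02 at 48 h, with list medians of 3.44 and 8.46) and a peak at 2733 to 2999 bp at 0 h only (3.49). No H3K4me1 peak was listed at Krt18 within 10 kb at either time.

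H3K14ac was listed at none of the 4 genes at 0 h and at all 4 at 48 h, a change of presence found at 56.4% of all genes. The 0 h list held 3453 peaks and the 48 h list 35270, and with the lists reduced to equal length 0 of the 4 genes had the mark at 48 h only. At 48 h the start peaks had fold enrichments of 23.4 at Krt18, 22.9 at Krt8, 16.7 at Krt7 and 10.3 at Krt19. Weaker H3K14ac peaks lay inside Krt7 (4.02), Krt8 (5.34 and 4.22) and Krt19 (2.79), on places where other lists also had peaks.

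**Figure D2:**
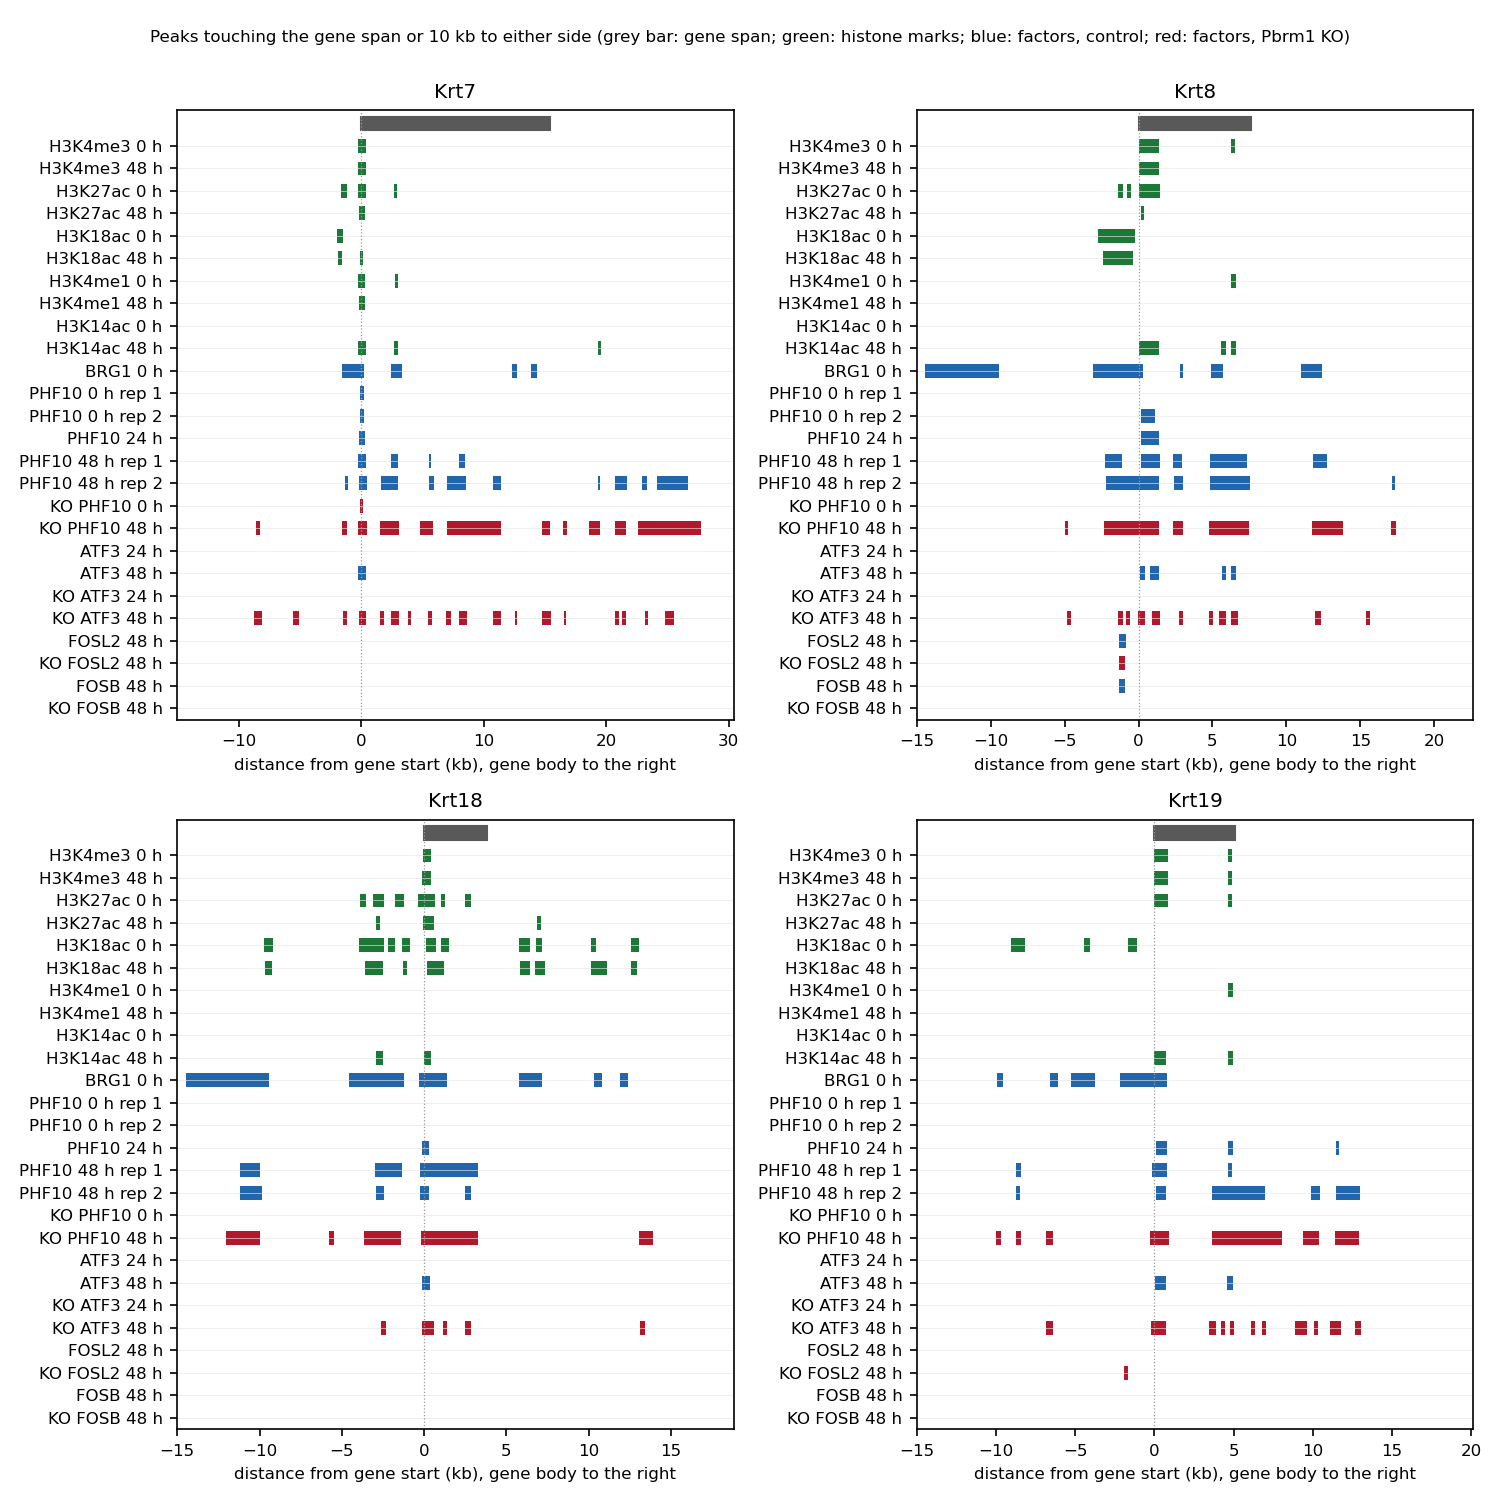
Position of every peak touching each gene or 10 kb to either side, 1 row per list, against distance from the gene start in kb (negative upstream, gene body to the right, grey bar the gene span; green histone marks, blue factors in control, red factors in Pbrm1 KO). Peaks stack at the starts in most lists, and at Krt19 the rows of H3K27ac, H3K18ac and H3K4me1 are empty at 48 h. The start of Krt19 is taken as its end of higher coordinate, where its H3K4me3 peaks lie.

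Krt19 thus had H3K4me3 at both times, while H3K27ac, H3K18ac and H3K4me1 were listed within 10 kb at 0 h and not at 48 h. Of 21883 protein-coding genes, 36 had this combination, which is 0.165%. It was chosen after the values of Krt19 were seen and is a description. Its H3K4me1 part rested on a single peak of low rank (2.82, rank 17534 of 20179), and Krt19 was not in the class of H3K4me1 at 0 h only when the lists were reduced to equal length or to peaks of at least 5-fold enrichment. Krt19 was in the classes of H3K27ac and H3K18ac at 0 h only under both of these settings. None of the other 3 genes and 0 of 49 other keratin genes had it. Within 50 kb, the absence of these 3 marks at 48 h after their presence at 0 h was found at 47 genes (0.215%). Krt19 was among them, with 4 of the 49 other keratin genes, 2 of which share ground with the 10 kb windows of the 4. Shared ground in windows of 50 kb was not counted, and Krt35, Krt36, Krt13, Krt15 and Krt9 lie within 50 kb of Krt19. H3K14ac at the start of Krt19 went the other way, with a peak of 10.3 at 48 h and none at 0 h.

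BRG1 was listed at all 4 genes in untreated control cells, against 56.7% of all genes, with 19 peaks counted over the genes and 18 distinct peaks. A single peak of 5006 bp between Krt8 and Krt18 (102013759 to 102018764 on chromosome 15) counts for both. The start of every gene lay in a BRG1 peak of modest height (3.06 at Krt7, 3.04 at Krt8, 2.51 at Krt18 and 2.99 at Krt19, where the list median was 2.90). The strongest BRG1 peaks lay elsewhere at 3 of the 4 genes. At Krt7 it lay 14.1 kb from the start near the end of the gene (101426307 to 101426782), with a fold enrichment of 5.05, rank 399 of 29215 in the list. Krt7 so ranked above 98.1% of the genes with a BRG1 peak. No peak of any other list touched that site. At Krt8 the strongest BRG1 peak lay 11.7 kb from the start, beyond the gene end (4.15, above 93.5% of genes), and at Krt18 it was the shared peak (3.54, above 81.4%).

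PHF10 was sparse at the 4 genes before TGFβ1. Replicate 1 at 0 h had 1 peak, at the start of Krt7 (4.91), and replicate 2 had 2, at the starts of Krt7 (3.66) and Krt8 (3.13). All 3 were weak for their lists: Krt7 ranked above 8.48% of the genes with a peak in replicate 1 and 21.7% in replicate 2, and Krt8 above 2.97%. Only Krt7 thus had PHF10 in both 0 h libraries, as did 45.5% of all genes.

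After 24 h of TGFβ1 the single PHF10 library had 6 peaks at the genes and at least 1 at each (71.3% of all genes). Krt18 (4.19 at the start) and Krt19 (3.79 inside the gene and 3.23 at the start) had PHF10 at 24 h and in neither 0 h library, a class of 10.8% of genes. At 48 h replicate 1 had 15 peaks and replicate 2 had 23, again with all 4 genes in both (74.3% of all genes). Ranked among the genes with a PHF10 peak, the 4 stood above 9.96% (Krt8) to 40.4% (Krt7) at 24 h. At 48 h they stood above 8.65% (Krt18) to 36.5% (Krt8) in replicate 1 and above 35.1% (Krt8) to 55.0% (Krt19) in replicate 2. Krt18 and Krt19 had PHF10 in both 48 h libraries and in neither 0 h library, as did 14.5% of genes. With the lists reduced to equal length this class held Krt8 and Krt19 at 48 h, and the 24 h class held Krt8 and Krt18. With only peaks of −log10 q of at least 5 no gene of the 4 was in the 48 h class, and the 24 h class held Krt7, Krt8 and Krt18. The shares of all genes were not counted under these settings, and 14.5% and 10.8% hold for the lists as deposited. In the lists as deposited, 23 of the 44 other keratin genes with no shared window were in the 48 h class and 15 in the 24 h class.

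Per gene, replicates 1 and 2 at 48 h had 4 and 10 peaks at Krt7, 5 and 4 at Krt8, 3 and 4 at Krt18 and 3 and 5 at Krt19. The summed number did not overlap between 0 h (1 and 2) and 48 h (15 and 23) in the lists as deposited. With only peaks of −log10 q of at least 5 it did, with 0 and 0 peaks at 0 h and 0 and 6 at 48 h. On the scale of log2(peaks + 1) the 0 h libraries averaged 1.29 ± 0.41 (SD, n = 2) and the 48 h libraries 4.29 ± 0.41 (SD, n = 2), which differ by 3.00 (exact two-sided permutation test, p = 0.33, the smallest p that 2 against 2 libraries allow). Any values that do not overlap between the 2 times give this p, whatever their spread. The labels do not say that the replicates came from separate cultures, so the p concerns only these libraries. List length moved with the result, from 11285 and 14731 peaks at 0 h through 28011 at 24 h to 43549 and 102434 at 48 h. Per 1000 peaks of the list, the 4 genes held 0.0886 and 0.136 at 0 h, 0.214 at 24 h and 0.344 and 0.225 at 48 h. With the lists reduced to equal length the difference was 1.58 on the same log2 scale, and with the filter on q it was 1.40 (exact two-sided permutation test, p = 1.0).

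**Figure D3:**
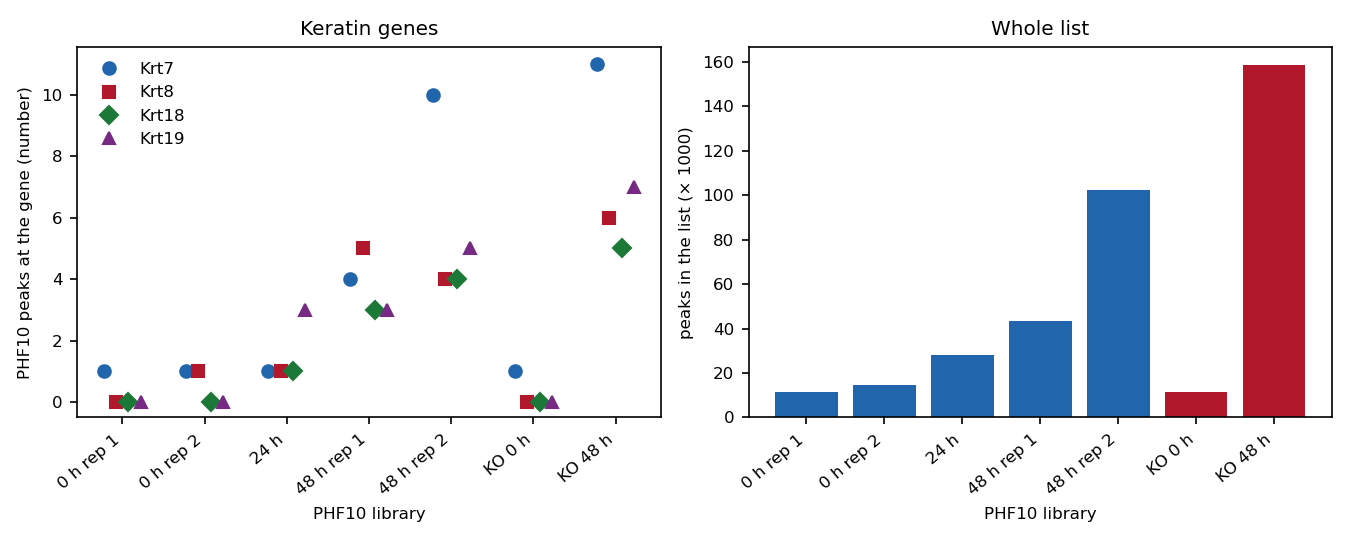
Left, number of PHF10 peaks at each keratin gene in each library; right, number of peaks in the whole list, in units of 1000 (blue control, red Pbrm1 KO; each symbol or bar is 1 library). The 0 h libraries have 0 or 1 peak at each gene and the 48 h libraries 3 to 11, and the lists are also longest at 48 h.

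In Pbrm1 KO cells PHF10 was also sparse at 0 h and present at all 4 genes at 48 h. At 0 h the KO library had 1 peak, at the start of Krt7 (3.74), and 52.4% of all genes had a peak. At 48 h it had 29 peaks at the 4 genes, from 5 at Krt18 to 11 at Krt7, and 87.9% of all genes had a peak. No gene of the 4 had PHF10 in KO and in neither control library, or in both control libraries and not in KO, at 0 h (2.36% of all genes) or at 48 h (4.35%). The KO lists held 11515 peaks at 0 h and 158815 at 48 h, and the 4 genes held 0.0868 and 0.183 peaks per 1000.

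ATF3, a stress-induced bZIP factor, was listed at none of the 4 genes at 0 h or 24 h in control or KO cells. At 24 h the control list held 2004 peaks and the KO list 69, and 7.1% of all genes had a peak in only 1 of them. At 48 h in control cells all 4 had ATF3 at the start. A peak in the span or within 10 kb was found at 76.4% of genes, and the share at the start was not counted. The fold enrichments were 9.87 at Krt8, 9.79 at Krt18, 8.98 at Krt19 and 8.60 at Krt7, where the median over all peaks of the list was 6.75. Among the genes with an ATF3 peak, Krt8 ranked above 58.1%, Krt18 above 55.8%, Krt19 above 43.8% and Krt7 above 38.1%. The presence at 48 h and not at 0 h was shared by 76.4% of all genes, with 20 peaks in the 0 h list and 45716 at 48 h. Reduced to equal length, the lists had ATF3 at 48 h only at 0 of the 4 genes. That setting kept only 20 peaks of each list, too few to decide. Krt8 had 3 further ATF3 peaks and Krt19 had 1, all inside the gene.

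In KO cells at 48 h all 4 genes again had ATF3 (84.6% of all genes), with 45 peaks against 8 in control. They comprised 18 at Krt7, 11 at Krt8, 11 at Krt19 and 5 at Krt18. The strongest had fold enrichments of 5.05 (Krt8), 4.88 (Krt18), 4.47 (Krt7) and 4.01 (Krt19). The KO list was longer than the control list, with 144513 peaks, and its median was 3.52 against 6.75 in control. By rank among the genes with an ATF3 peak, Krt8 stood above 66.7% in KO and 58.1% in control. These ranks were 60.4% and 55.8% for Krt18, 42.1% and 38.1% for Krt7, and 23.0% and 43.8% for Krt19. No gene of the 4 had ATF3 in 1 genotype only, against 11.6% of all genes. When only peaks of at least 5-fold enrichment were kept, 3 of the 4 (Krt7, Krt18 and Krt19) had ATF3 in control only. That cutoff lies above the median of the KO list and below that of the control list. The share of all genes in this class under the cutoff was not counted.

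FOSL2 and FOSB, AP-1 proteins of the FOS family, were listed at none of the 4 genes at 0 h, where their lists held at most 7 peaks. At 48 h control FOSL2 was listed at Krt8, as at 9.22% of all genes, and 9.21% had it at 48 h and not at 0 h. With the lists reduced to equal length 0 of the 4 genes did. That setting kept only 7 peaks of each list, too few to decide. The peak (102005219 to 102005690 on chromosome 15) was centred 1.1 kb upstream of the Krt8 start. Its fold enrichment was 13.3, rank 75 of 3444, and Krt8 ranked above 97.3% of genes with a FOSL2 peak. Control FOSB was listed on the same place at 48 h (102005287 to 102005638) with 8.97, rank 5 of 188, where 0.717% of all genes had a FOSB peak. In control cells the 0 h lists of both factors name another input than the 48 h lists, and its part in the result was not tested.

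In KO cells FOSL2 was again listed upstream of Krt8 at 48 h (15.4, rank 237 of 7381), and 17.2% of all genes had a peak. Krt19 had a FOSL2 peak in KO and not in control (7.30, 100147604 to 100147871 on chromosome 11, centred 1.8 kb upstream of the start), as did 8.63% of genes. With the lists reduced to equal length Krt19 was not in that class. FOSB was listed at none of the 4 genes in KO cells, so Krt8 had it in control only, a class of 0.676% of genes. The control FOSB list held 188 peaks and the KO list 31. With the lists reduced to equal length Krt8 stayed in that class, and the share of all genes was not counted there.

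The place upstream of Krt8 was touched by peaks of 11 lists. Besides FOSL2 in both genotypes and control FOSB, these were BRG1 and H3K27ac at 0 h, H3K18ac at 0 and 48 h, PHF10 in both control libraries at 48 h, and PHF10 and ATF3 in KO cells at 48 h. H3K4me3, H3K4me1 and control ATF3 were not among them. The FOSL2 peak 1.8 kb upstream of Krt19 was touched by BRG1 at 0 h and no other list.

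Within 50 kb of the genes, 5 more places had FOSL2 at 48 h in control cells, and each also had it in KO cells. Near Krt7 they lay 24.0 kb upstream (6.17 in control and 10.3 in KO) and 60.8 kb downstream of the start (8.56 and 7.36). A place 11.9 kb upstream of Krt18, inside the BRG1 peak between Krt8 and Krt18, had 5.47 and 6.87, and a place 17.6 kb downstream of its start had 9.75 and 14.7. The place that carried FOSL2 with the most other lists was 26.8 kb from the start of Krt8, within the annotated span of Krt78 (101977350 to 101977716). It had 11.2 in control and 19.0 in KO, and peaks of 21 lists touched it, PHF10 of both 0 h libraries among them. A further place, 11.5 kb upstream of Krt7, had FOSL2 in KO only (5.46).

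Peaks of different lists fell on the same few places of each gene. Counted in bins of 50 bp, the Krt7 start (250 bp before to 400 bp after) was touched by 18 lists, the Krt18 start by 14, the Krt8 start by 13 and the Krt19 start by 11. Places inside the genes recurred too. Bases 4650 to 4950 of Krt19, near the far end of the gene, were touched by 11 lists, as many as its start, among them H3K4me3 at both times, PHF10 at 24 and 48 h and ATF3 at 48 h. In Krt8, bases 6300 to 6550 were touched by 8 lists and 5600 to 5850 by 7, and in Krt7 bases 2700 to 2950 by 8. Upstream of Krt18, the place from 2950 to 2450 bp before the start was touched by 10 lists, with H3K27ac at 0 h (12.0) and 48 h (2.53), H3K18ac at both times and BRG1 among them.

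**Figure D4:**
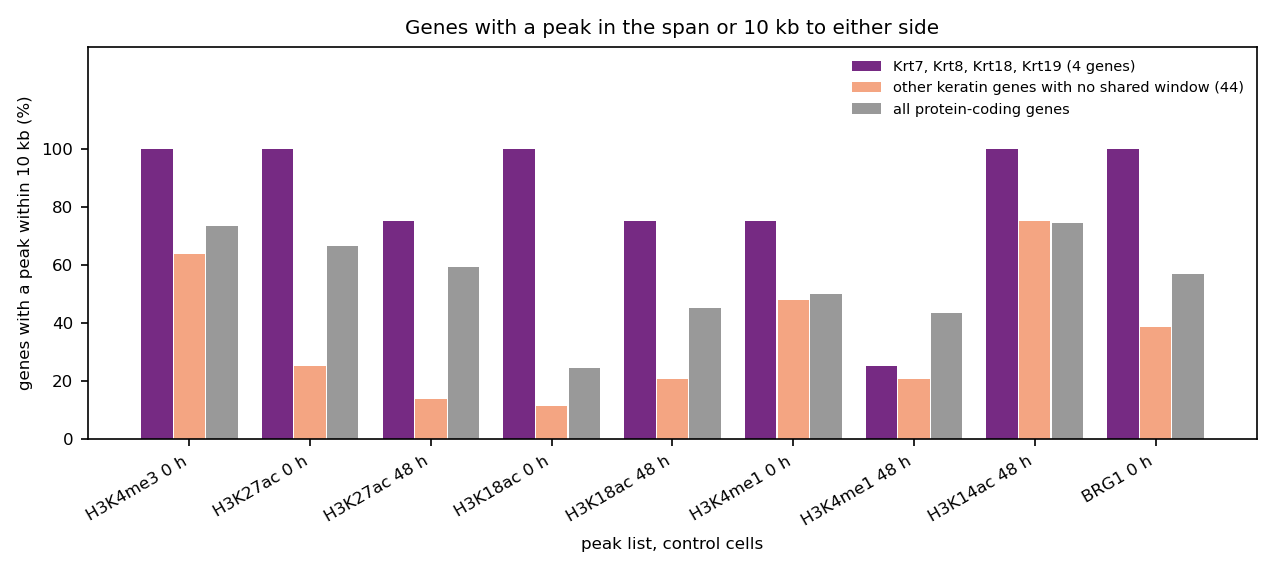
Percentage of genes with a peak in the span or 10 kb to either side, in 9 lists from control cells, for the 4 simple-epithelium keratins (purple), 44 other keratin genes with no shared window (orange) and all protein-coding genes (grey). The 4 genes are at 100% in H3K27ac at 0 h, where the other keratins stand at 11 of 44 genes.

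The rest of the keratin family was counted in the same way. H3K27ac lay at 11 of the 44 other keratin genes with no shared window at 0 h and at 6 at 48 h, H3K18ac at 5 and 9, and BRG1 at 17. H3K4me3 lay at 28 and 26 and H3K4me1 at 21 and 9. H3K14ac lay at 33 and ATF3 at 40 of them at 48 h. These are counts without a test, since the 4 genes were proposed with earlier results of these data known.

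Of 14 keratins of other epithelia, 4 had H3K27ac at 0 h and 3 at 48 h. Krt15, a basal-layer keratin next to Krt19, was listed at 0 h only through the same 34.0-fold peak as Krt19. H3K4me1 was listed at 0 h only at 6 of the 14, among them Krt80 (3.92), Krt23 (3.85) and Krt16 (3.76), and at 48 h only at Krt20 (5.07). PHF10 in both 48 h libraries and no 0 h library was found at 5 of the 14, including Krt17 (3.30) and Krt80 (3.11). Of 7 other intermediate filament genes, all 7 had H3K27ac at both times, and H3K18ac was listed at 48 h only at 4, among them Vim, which encodes vimentin (5.36), Synm, which encodes synemin (8.80), and Nes, which encodes nestin (3.61). FOSL2 was listed in control at 48 h only at Lmna (15.5), which encodes lamins A and C, and at Vim (7.81).

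Genes of proteins that anchor keratin filaments at desmosomes and hemidesmosomes (8 genes) all had H3K4me3 and H3K27ac at both times. H3K18ac was listed at 0 h only at Evpl, envoplakin (5.61), and Ppl, periplakin (5.19), and at 48 h only at 3, Eppk1, epiplakin (15.0), Pkp2, plakophilin 2 (11.5), and Jup, plakoglobin (6.26). Control FOSL2 at 48 h was listed at 4 of the 8, the strongest at Plec, plectin (14.1). None had the PHF10 pattern of Krt18 and Krt19 (14.5% of all genes). All 8 had PHF10 in both control libraries at 48 h, and 6 of the 8 also had it in both at 0 h.

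Likeness was measured as Pearson's r over the 23 lists with at least 1000 peaks, between the percentile of a gene's strongest peak among the genes with a peak in each list (0 where it had none). The points share antibodies and list depth, so r is a description. Krt19 was most like Acsl5 (0.95), Krt18 most like the neighbouring genes Mak16 and Tti2 (both 0.91), Krt7 most like Majin and Mst1r (both 0.89) and Tmem82 (0.87), and Krt8 most like Tmem208 and Prn (both 0.87) and Gtf3c2 (0.85). D630003M21Rik (0.90 with Krt18) and the neighbours Fam126b and Ndufb3 (both 0.86 with Krt19) complete the closest 3 of each. Among the 4 keratins themselves r was highest between Krt7 and Krt18 (0.80) and lowest between Krt7 and Krt8 (0.29), and the Krt8 and Krt18 pair stood at 0.41.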

How the data were processed

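Per the submitters' processing notes, reads were handled on mm10 with MACS3 3.0.0a7, Bowtie2 2.3.3, deepTools 3.5.1, fastp 0.19.5 and Partek 11.0.24.0325, with no role or setting given. Per the file headers, each list names 1 ChIP library and 1 input, and no pooling of replicates is recorded. The deposited pileup signal was not used. The deposited −log10 p-value and −log10 q-value of each peak served to shorten or filter lists, and the deposited fold (ChIP over input, a ratio) to describe and rank peaks within a list. The authors' PHF10 and BRG1 lists reach down to a −log10 q of 1.00 to 1.05 and the others to 1.30 or higher, so antibodies were not called at 1 threshold. Per the labels' protocols, PHF10, BRG1 and ATF3 cells were crosslinked with disuccinimidyl glutarate and formaldehyde, and the others with formaldehyde alone.

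Peaks were joined to RefSeq gene spans in Python 3.11.15 (numpy 2.4.6, pandas 2.3.3, scipy 1.17.1), and figures used matplotlib 3.10.9. The join was tested on simulated data. A comparison counts genes with a peak in every library of 1 arm and none of the other. Where a gene had no strand in the RefSeq promoter table, the end of higher coordinate stood for the start. Genes of the other lists were named where they had a peak in 1 arm only, up to 3 per list and comparison by the authors' fold, and a part of them is given. The 3 genes most like each member exclude those with an overlapping window. The members and lists were chosen with earlier results of these data known. The alternatives were peak filters, window sizes, the peak midpoint, equal list lengths, each PHF10 replicate left out, a replicate block and another pseudocount. Peaks were not assigned to exons or introns, and sequences of sites outside promoters were not used here.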

Additional observations from a re-analysis of the deposited data

How the results depend on the processing

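Of 128 alternative values for 16 results, 22 moved and 2 reversed. None of the other 104 changed direction, and those that are counts of the 4 genes with a peak in 1 arm only stayed within 1.5 times or stayed at 0. A count that stayed at 0 had no direction to keep. For the PHF10 peak number only the sign of a difference, or its absence, could change the class, since so few libraries cannot give a small p. In 6 of the 104 the genes counted were not the same. For PHF10 at 48 h these were Krt8 and Krt19 with equal list lengths, and at 24 h Krt8 and Krt18 with equal list lengths and Krt7, Krt8 and Krt18 with a −log10 q of at least 5. Without control PHF10 replicate 2 at 0 h, Krt8 joined Krt18 and Krt19 at both times. For H3K4me1 in windows of 50 kb they were Krt18 and Krt19. With a −log10 q of at least 5, PHF10 at 48 h against 0 h gave 0 genes, and the log2 difference in peak number was 1.40 (exact two-sided permutation test, p = 1.0, with 0 and 0 peaks at 0 h and 0 and 6 at 48 h). With a fold enrichment of at least 5 that comparison and PHF10 at 24 h each gave 0 genes and a PHF10 difference of 0 (no peak passed), ATF3 in KO against control at 48 h gave 3, H3K18ac gave 2 (Krt7 and Krt19), and H3K4me1 reversed to 1 gene, Krt7 at 48 h. In the gene span alone FOSL2 over time, FOSL2 in KO and FOSB each gave 0, and H3K18ac reversed to 1 gene, Krt7 at 48 h. In windows of 50 kb PHF10 at 48 h and PHF10 at 24 h each gave 1, FOSL2 over time 3 and FOSB 2. ATF3 at 24 h in these windows gave 1, Krt7, listed in control and not in KO. Within 2 kb of the start, or of either end for Krt19, H3K4me1 gave 1 (Krt19). With equal list lengths ATF3 over time, both FOSL2 comparisons and H3K14ac gave 0, H3K4me1 gave 1 (Krt8) and H3K18ac 2, with fewer peaks kept in the longer list. ATF3 over time kept 20 peaks of each list and FOSL2 over time 7, too few to decide. For none of these alternative counts was the share of all genes counted.

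Leaving out each PHF10 replicate moved the log2 difference between 2.71 and 3.29. Without control replicate 1 at 0 h, 1 gene (Krt8) had PHF10 in control and not in KO at 0 h, and without the other control replicate 0 had. With the replicate number as a block the difference was 3.00 (exact sign-flip test, p = 0.5). The labels do not say what a replicate number shares, and 2 pairs cannot show it. Read depth is unknown, and an absent peak means only that none was listed.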
